A study of Mus musculus with 22 samples.

Results

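Ribosome biogenesis genes encode the proteins that transcribe, modify, cut and fold ribosomal RNA and assemble it with ribosomal proteins. A list of 35 such genes was followed through mouse EMT6 mammary tumours treated with JQ1 alone or in combinations. The members were picked by gene name, for their known function and with earlier results of these data known, and all 35 were found among the 24353 genes of each of the 2 tables of expression values. Gene symbols are in capitals, as in the tables. By role, 4 members encode RNA polymerase I subunits, 4 box C/D and 3 box H/ACA small nucleolar ribonucleoproteins (snoRNPs), and 5 nucleolar organisers or chaperones. A further 6 act in small-subunit and 10 in large-subunit assembly, 2 in polyamine synthesis, and 1 is a transcriptional coactivator.

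Ribosomes are built mainly in the nucleolus, where RNA polymerase I makes a long precursor RNA. The snoRNPs guide chemical modification of that precursor, and assembly factors then direct its cutting and folding into the small and the large subunit. Growing tumour cells spend much of their RNA synthesis on this pathway, and Myc, a transcription factor often raised in cancer, is known to drive many of its genes. JQ1 is a small molecule that displaces BET proteins from acetylated chromatin, and lower Myc expression is among its known effects in many tumour cells.

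Promoters show what DNA lies in front of members that moved together in the data below. Of the 35 members, 29 matched the RefSeq promoter table (GRCm38.p6), which holds 250 bases before to 50 bases after a gene's start. The 6 that did not were SRM, FBL, NPM1, RRP12, BOP1 and RRS1. CACGTG, the palindromic E-box that Myc-Max dimers are known to bind, occurred in the promoters of 5 of the 29, which were NOP2, UTP20, PES1, TSR1 and WDR43. That was 17.2% of the matched members, beside 8.09% of the 27025 genes in the table. CCGGAAG, a sequence of the kind bound by ETS factors, occurred on either strand in 10 of the 29, or 34.5%, beside 9.93% of all genes. This second motif was chosen after the printed promoters had been read, so its share is a description. Printed here are the promoters of the 3 box H/ACA members, which behaved alike in the CD45-negative cells, and of PES1 and WDR43, which hold an E-box. PES1 and WDR43 were called higher when anti-PD-L1 was added, while NOP2, UTP20 and TSR1 were called in no comparison. DKC1, GAR1, NHP2, RRP9, LYAR and RRP1B, which were called lower below, had no E-box in a listed promoter. SRM, also called lower, had no promoter listed. Capitals mark CACGTG or CCGGAAG, with CCGGAAG written CTTCCGG where it lies on the other strand, and neither motif overlaps the other in these sequences. In GRCm38.p6 the windows are DKC1 at chrX:75095604-75095903 (plus strand), GAR1 at chr3:129831347-129831646 (minus strand), NHP2 at chr11:51619523-51619822 (plus strand), PES1 at chr11:3963725-3964024 (plus strand) and WDR43 at chr17:71615965-71616264 (plus strand), each written 5′ to 3′ on the gene's strand.
DKC1: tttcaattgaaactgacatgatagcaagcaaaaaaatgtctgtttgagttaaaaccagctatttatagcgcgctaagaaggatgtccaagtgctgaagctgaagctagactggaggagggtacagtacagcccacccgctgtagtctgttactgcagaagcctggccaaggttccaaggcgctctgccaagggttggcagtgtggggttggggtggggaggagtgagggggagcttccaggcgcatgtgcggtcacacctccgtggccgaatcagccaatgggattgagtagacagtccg
GAR1: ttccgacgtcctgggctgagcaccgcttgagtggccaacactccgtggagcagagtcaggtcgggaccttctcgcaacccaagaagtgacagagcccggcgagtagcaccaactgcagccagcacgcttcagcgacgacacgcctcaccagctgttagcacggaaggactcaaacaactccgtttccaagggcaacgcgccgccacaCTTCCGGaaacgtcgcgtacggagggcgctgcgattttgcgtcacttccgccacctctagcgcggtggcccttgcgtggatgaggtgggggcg
NHP2: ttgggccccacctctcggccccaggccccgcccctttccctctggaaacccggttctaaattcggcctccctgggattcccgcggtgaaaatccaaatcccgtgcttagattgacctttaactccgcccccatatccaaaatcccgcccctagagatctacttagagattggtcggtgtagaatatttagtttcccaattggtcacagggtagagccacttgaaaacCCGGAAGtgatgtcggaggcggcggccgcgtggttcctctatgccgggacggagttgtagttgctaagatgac
PES1: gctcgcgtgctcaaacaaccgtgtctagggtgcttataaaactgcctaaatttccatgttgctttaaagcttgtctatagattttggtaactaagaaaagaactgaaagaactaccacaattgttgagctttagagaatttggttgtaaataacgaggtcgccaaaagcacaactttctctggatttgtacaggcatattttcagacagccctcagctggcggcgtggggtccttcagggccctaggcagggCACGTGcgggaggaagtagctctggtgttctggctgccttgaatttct
WDR43: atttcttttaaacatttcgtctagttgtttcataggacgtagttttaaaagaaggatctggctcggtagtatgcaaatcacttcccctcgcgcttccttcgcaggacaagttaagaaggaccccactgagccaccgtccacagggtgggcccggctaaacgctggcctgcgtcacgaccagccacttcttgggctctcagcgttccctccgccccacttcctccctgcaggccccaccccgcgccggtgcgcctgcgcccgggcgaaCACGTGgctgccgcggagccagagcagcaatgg
The DKC1 window held neither motif, GAR1 and NHP2 held 1 CCGGAAG each, and the E-box lay 2 bases after the listed start in PES1 and 17 bases after it in WDR43. A match in these letters does not show that a factor binds there.

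The RNA came from wild-type BALB/c mice, 5 to 6 weeks old at injection. Their 2 inguinal mammary fat pads each received 200000 EMT6 cells, a mouse mammary carcinoma line. Treatment began at palpable tumours, about 5 to 7 days later. The treated groups received JQ1 (50 mg/kg, daily by gavage), JQ1 with anti-PD-L1, JQ1 with paclitaxel, or all 3 drugs, and the remaining group received vehicle. Anti-PD-L1 is an antibody (clone 10F.9G2, 10 mg/kg) against the ligand of the PD-1 checkpoint receptor. Paclitaxel is a drug that stabilises microtubules, and it was also given at 10 mg/kg, with both injected into the peritoneum 2 times a week. Groups given paclitaxel or anti-PD-L1 without JQ1 were not analysed here. Each tumour was separated with anti-CD45 beads into CD45-positive cells, chiefly leukocytes, and CD45-negative cells, which hold the tumour cells and fibroblasts. Vessel RNA was in both fractions. Each endothelial marker listed had a higher median in CD45-positive than in CD45-negative libraries, as with PECAM1 (4.76 against 1.98 FPKM) and ESAM (6.49 against 3.08 FPKM).

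The CD45-negative fraction had 12 libraries, with 3 each for JQ1 plus paclitaxel and for all 3 drugs and 2 for every other group, and the CD45-positive fraction had 10 libraries, 2 a group. Sample titles carry a code and a side, which were read as mouse and tumour side. On that reading, the JQ1, the JQ1 plus anti-PD-L1 and the vehicle groups are each the right and left tumours of 1 mouse, so their spread is not one between animals. Values were read as FPKM, a fragment count scaled to transcript length and library size. Their sums ran from 296682 to 370513 in CD45-negative and from 315256 to 364118 in CD45-positive libraries. Read totals are not stated, but the steps between the lowest values gave relative depths of 0.547 to 1.79 and 0.629 to 1.71 in the CD45-negative and CD45-positive libraries. PTPRC, which encodes CD45, ran from 38.6 to 73.6 FPKM in CD45-positive and from 1.25 to 8.65 FPKM in CD45-negative libraries. The CD45-negative libraries were thus depleted of leukocyte RNA but not free of it. In bulk libraries, fewer cells of a type and less RNA per cell cannot be told apart.

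In the CD45-negative fraction, the 3 box H/ACA members and SRM, the spermidine synthase gene, were lower with JQ1 and with JQ1 plus paclitaxel than with vehicle. They and 13 other members were higher in the anti-PD-L1 groups than in the JQ1 groups without the antibody. JQ1 lowered 4 of the 35 members against vehicle (SRM, DKC1, GAR1 and NHP2) and raised none, while 9.68% of the 10780 genes tested were called lower and 5.09% higher. The share of members called lower with JQ1 was thus close to that of all genes. The members' median log2 difference was -0.35, against -0.05 over all genes. JQ1 plus paclitaxel lowered 7 members (the same 4 with RRP9, LYAR and RRP1B) and raised none, beside 12.3% of all genes called lower and 5.29% higher. The median difference there was -0.37 over the members and -0.07 over all genes. Without overlap between the groups, JQ1 lay below vehicle in 19 members and above it in 4, a pattern seen in 33% and 27% of all genes. For JQ1 plus paclitaxel it was 14 below and 0 above, beside 29.2% and 19.4% of all genes. Both comparisons use the same vehicle libraries. Calls are from limma on log2(FPKM + 1) with Benjamini-Hochberg adjustment over all genes tested, at an adjusted p under 0.05. Counts in both comparisons went to 0 without vehicle replicate 2, and for JQ1 also without JQ1 replicate 1. For JQ1 plus paclitaxel, 3 members were left without either replicate 1 or replicate 2 of that group, and with 1 value per mouse code no member was called in either comparison.

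With JQ1 plus anti-PD-L1, no member was called against vehicle, where 0.186% of all genes were lower and 0.0649% higher. The members' median difference was 0.05. Only UTP20 and HEATR1 had an unadjusted p under 0.05 by limma, beside 1554 of the 10780 genes tested. Without overlap, 5 members were higher and 0 lower, beside 22.2% and 27.6% of all genes. With all 3 drugs, no member was called either, beside 1.05% of genes lower and 0.584% higher, with a median of 0.11. Only PPRC1 had an unadjusted p under 0.05 by limma, beside 2108 of the 10780 genes tested. Without overlap, 6 members were higher and 1 lower, beside 14% and 24.2% of all genes. A missed threshold does not show that these groups equal vehicle.

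**Figure D1:**
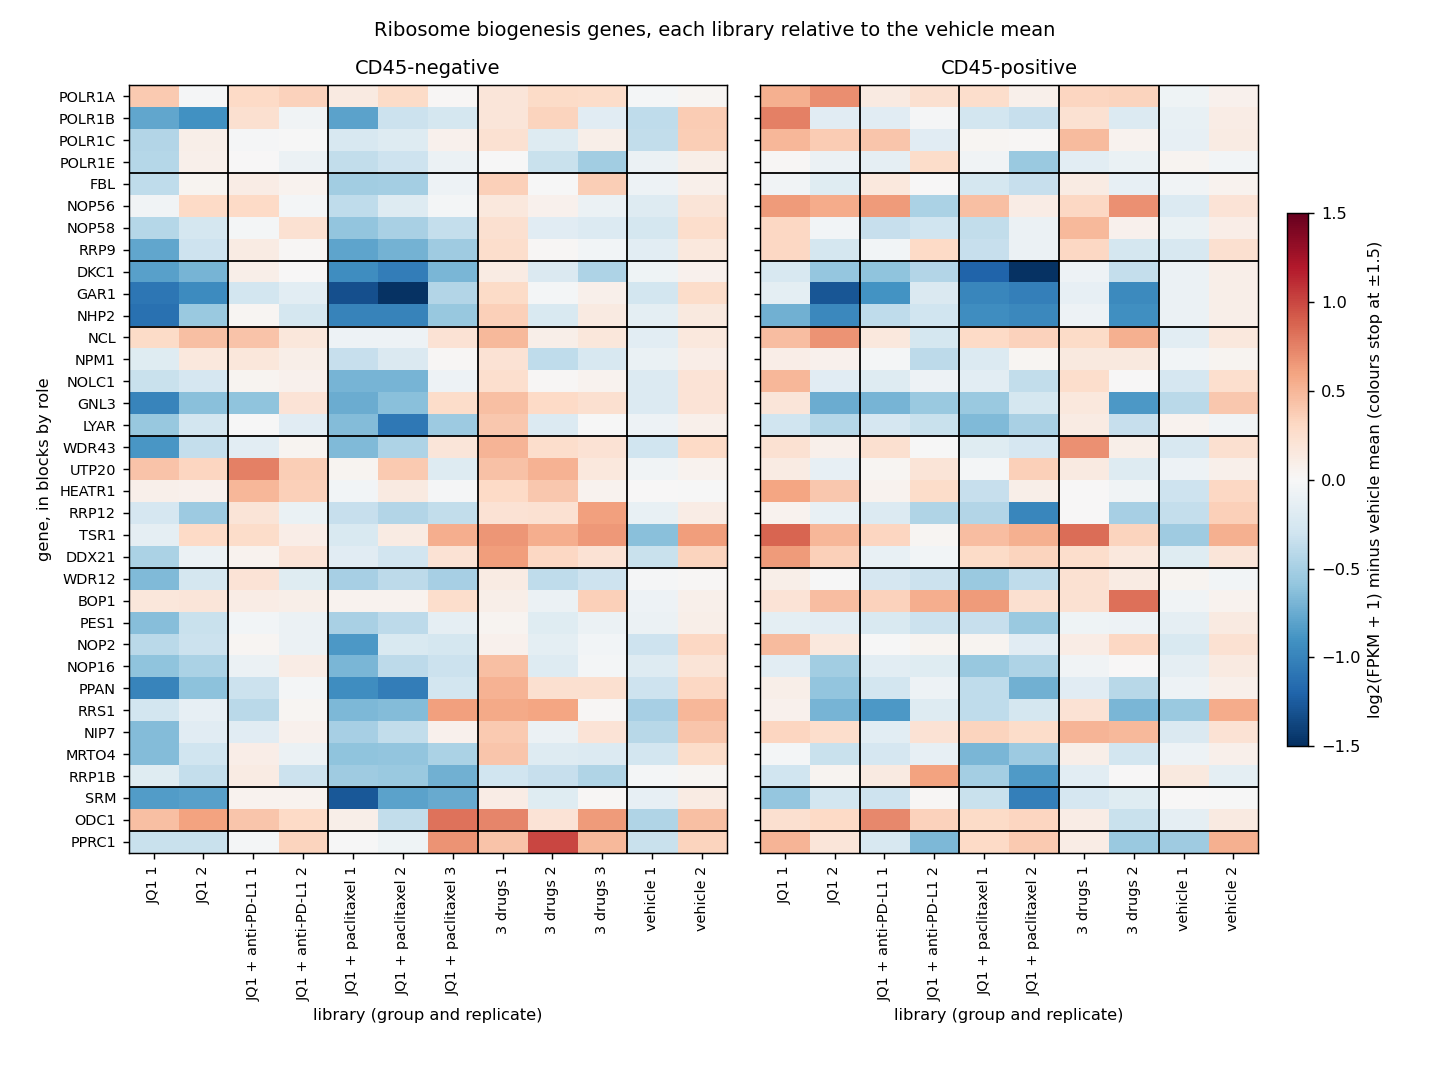
Each of the 35 members (rows, in blocks by role) in each library (columns, grouped by treatment with vehicle at the right), as log2(FPKM + 1) minus the vehicle mean of the same fraction. In the CD45-negative panel the box H/ACA rows and SRM are bluer in the JQ1 and the JQ1 plus paclitaxel columns than in the others, while BOP1 and NPM1 stay pale.

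Adding anti-PD-L1 was tested as the mean of the 2 groups with the antibody minus the mean of the JQ1 and the JQ1 plus paclitaxel groups. In CD45-negative cells it raised 17 of 35 members and lowered none, beside 14% of all genes called higher and 10.9% lower. The median difference was 0.43 over the members and 0.03 over all genes, and 34 of 35 differences were positive. In 13 members every antibody library lay above every library without the antibody, a pattern found in 6.35% of all genes, and no member showed the opposite, which 7.05% of genes did. Whether the change depended on paclitaxel was tested as an interaction, which called no member at an adjusted or an unadjusted p under 0.05. In that test 0% of all genes were called higher and 0.00928% lower, and 771 of the 10780 genes had an unadjusted p under 0.05. The count of 17 was 8 without JQ1 replicate 1, 9 without JQ1 plus anti-PD-L1 replicate 2, and 11 without replicate 1 of the 3-drug group or of JQ1 plus paclitaxel. With 1 value per mouse code it was 6 (SRM, DKC1, GAR1, NHP2, RRP9 and PPAN). Adding paclitaxel, averaged over groups with and without the antibody, called no member, beside 2.19% of genes higher and 1.37% lower. An unadjusted p under 0.05 by limma was found for 3 of 35 members (GNL3, RRP1B and PPRC1), beside 2202 of the 10780 genes. No member was free of overlap in that comparison, as 1.57% of genes were for higher and 1.46% for lower.

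**Figure D2:**
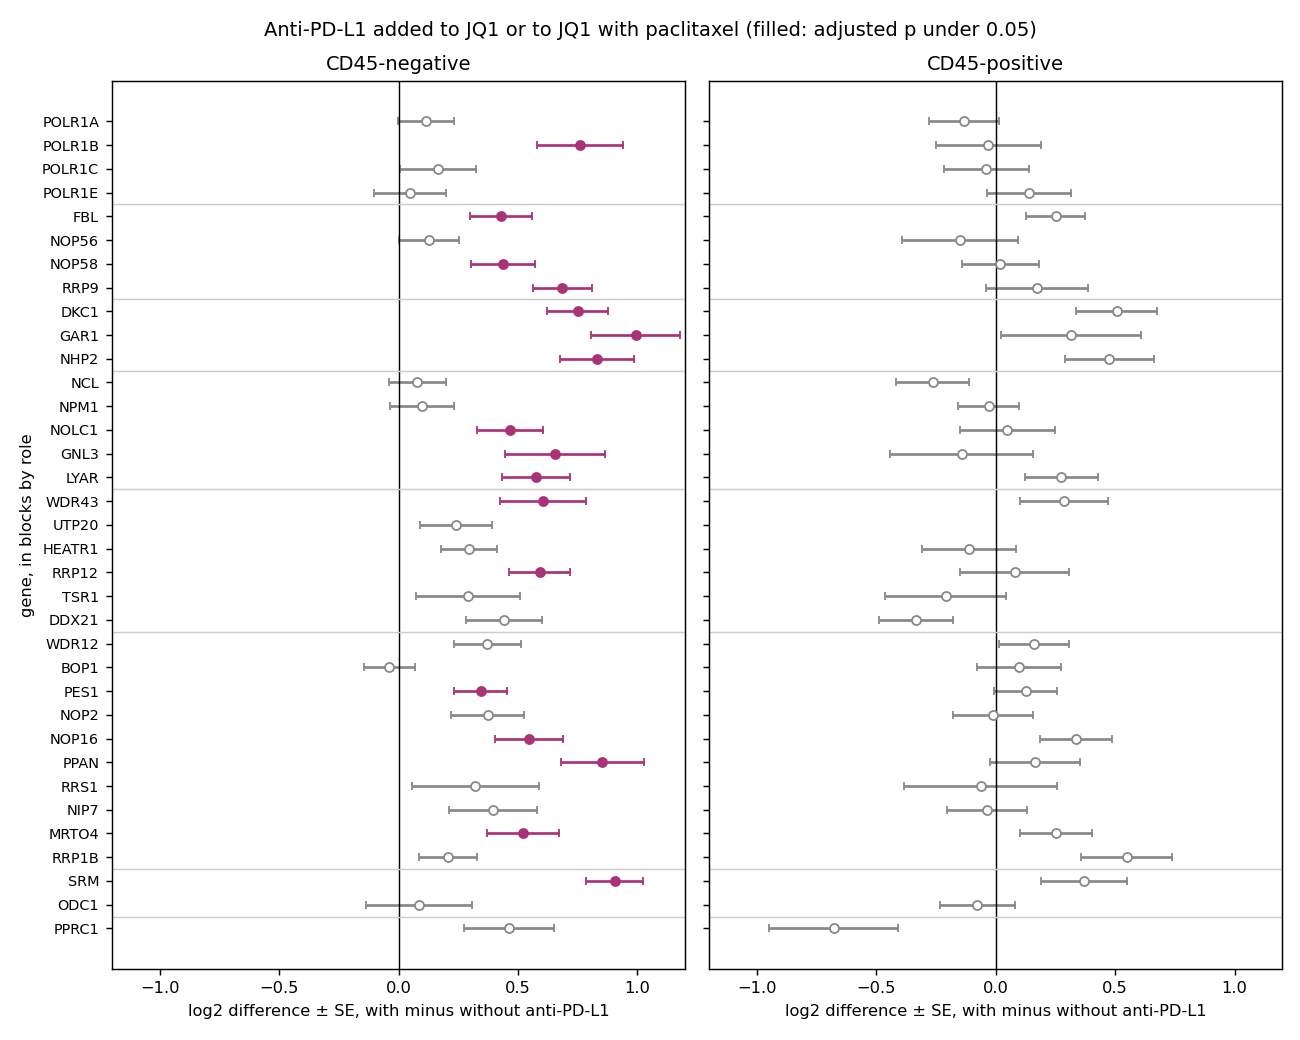
Log2 difference with its standard error for each member when anti-PD-L1 was added, in CD45-negative (left) and CD45-positive cells (right), with filled points for an adjusted p under 0.05. In the left panel 17 points are filled and all but BOP1 lie above 0, and in the right panel none is filled.

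Box H/ACA snoRNPs convert selected uridines of ribosomal RNA to pseudouridine, and the same proteins belong to telomerase. All 3 of their members moved in the same comparisons. DKC1 encodes dyskerin, the enzyme. It had 9.77 and 10.7 FPKM with JQ1, 19.2 and 18.1 FPKM with JQ1 plus anti-PD-L1, 8.98, 8.27 and 10.8 FPKM with JQ1 plus paclitaxel and 19.6, 15.3 and 12.7 FPKM with all 3 drugs, against 17.1 and 18.8 FPKM with vehicle. The 5 JQ1 and JQ1 plus paclitaxel libraries lay below all 7 others. DKC1 fell with JQ1 (log2 difference -0.75, SE 0.20, adjusted p 0.0240 by limma) and with JQ1 plus paclitaxel (-0.88, SE 0.18, adjusted p 0.00628 by limma). It rose when the antibody was added (log2 difference 0.75, SE 0.13, adjusted p 0.00148 by limma).

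GAR1, a structural partner of dyskerin, showed the largest log2 differences of all 35 members in these 3 comparisons. Its values were 27.2 and 30.3 FPKM with JQ1, 48.5 and 52.5 FPKM with JQ1 plus anti-PD-L1, 23.0, 20.5 and 43.4 FPKM with JQ1 plus paclitaxel and 72.4, 57.8 and 62.2 FPKM with all 3 drugs, against 48.5 and 71.6 FPKM with vehicle. The third JQ1 plus paclitaxel library stood well above the other two, but below every antibody and vehicle library. The log2 difference was -1.01 with JQ1 (SE 0.29, adjusted p 0.0343 by limma), -1.08 with JQ1 plus paclitaxel (SE 0.26, adjusted p 0.0157 by limma) and 0.99 with the antibody added (SE 0.19, adjusted p 0.00261 by limma). NHP2, which binds the guide RNA within the complex, had 32.9 and 49.0 FPKM with JQ1, 74.0 and 60.3 FPKM with JQ1 plus anti-PD-L1, 35.8, 35.8 and 48.7 FPKM with JQ1 plus paclitaxel and 93.5, 61.6 and 79.6 FPKM with all 3 drugs, against 65.6 and 80.5 FPKM with vehicle. Here too the 5 libraries given JQ1 without the antibody were the lowest. NHP2 fell by 0.84 on the log2 scale with JQ1 (SE 0.24, adjusted p 0.0360 by limma) and by 0.86 with JQ1 plus paclitaxel (SE 0.22, adjusted p 0.0202 by limma), and it rose when the antibody was added. In CD45-positive cells NHP2 had 34.2 and 28.5 FPKM with JQ1, 43.3 and 46.1 FPKM with JQ1 plus anti-PD-L1, 29.4 and 28.6 FPKM with JQ1 plus paclitaxel and 53.8 and 29.5 FPKM with all 3 drugs, against 53.7 and 60.3 FPKM with vehicle. Only the first 3-drug library reached the vehicle level there.

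Polyamine synthesis supplies the charged small molecules that bind and stabilise ribosomal RNA, and of its 2 members SRM was called and ODC1 was not. SRM encodes spermidine synthase and had the smallest adjusted p of the members in all 3 comparisons. It stood at 55.5 and 56.8 FPKM with JQ1, 104 and 104 FPKM with JQ1 plus anti-PD-L1, 41.1, 57.0 and 58.9 FPKM with JQ1 plus paclitaxel and 109, 88.8 and 102 FPKM with all 3 drugs, against 91.8 and 109.8 FPKM with vehicle. A gap without any library separated the groups given JQ1 without antibody from the other 3. SRM fell with JQ1 (log2 difference -0.83, SE 0.18, adjusted p 0.0121 by limma) and with JQ1 plus paclitaxel (-0.94, SE 0.17, adjusted p 0.00311 by limma). It rose when the antibody was added (0.91, SE 0.12, adjusted p 0.000365 by limma).

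ODC1, which encodes ornithine decarboxylase, the enzyme that opens the pathway, is known as a Myc target like SRM. Its values were 112 and 125 FPKM with JQ1, 109 and 101 FPKM with JQ1 plus anti-PD-L1, 87.2, 62.8 and 145 FPKM with JQ1 plus paclitaxel and 136, 94.2 and 128 FPKM with all 3 drugs, against 59.4 and 112 FPKM with vehicle. The vehicle tumours held both the lowest value and one near the median, and the log2 difference was 0.53 with JQ1 (SE 0.34, adjusted p 0.313 by limma) and 0.09 with the antibody added (SE 0.22, adjusted p 0.808 by limma). In CD45-positive cells ODC1 had 32.3 and 33.8 FPKM with JQ1, 45.3 and 34.8 FPKM with JQ1 plus anti-PD-L1, 33.4 and 34.3 FPKM with JQ1 plus paclitaxel and 29.6 and 21.4 FPKM with all 3 drugs, against 24.6 and 30.0 FPKM with vehicle.

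**Figure D3:**
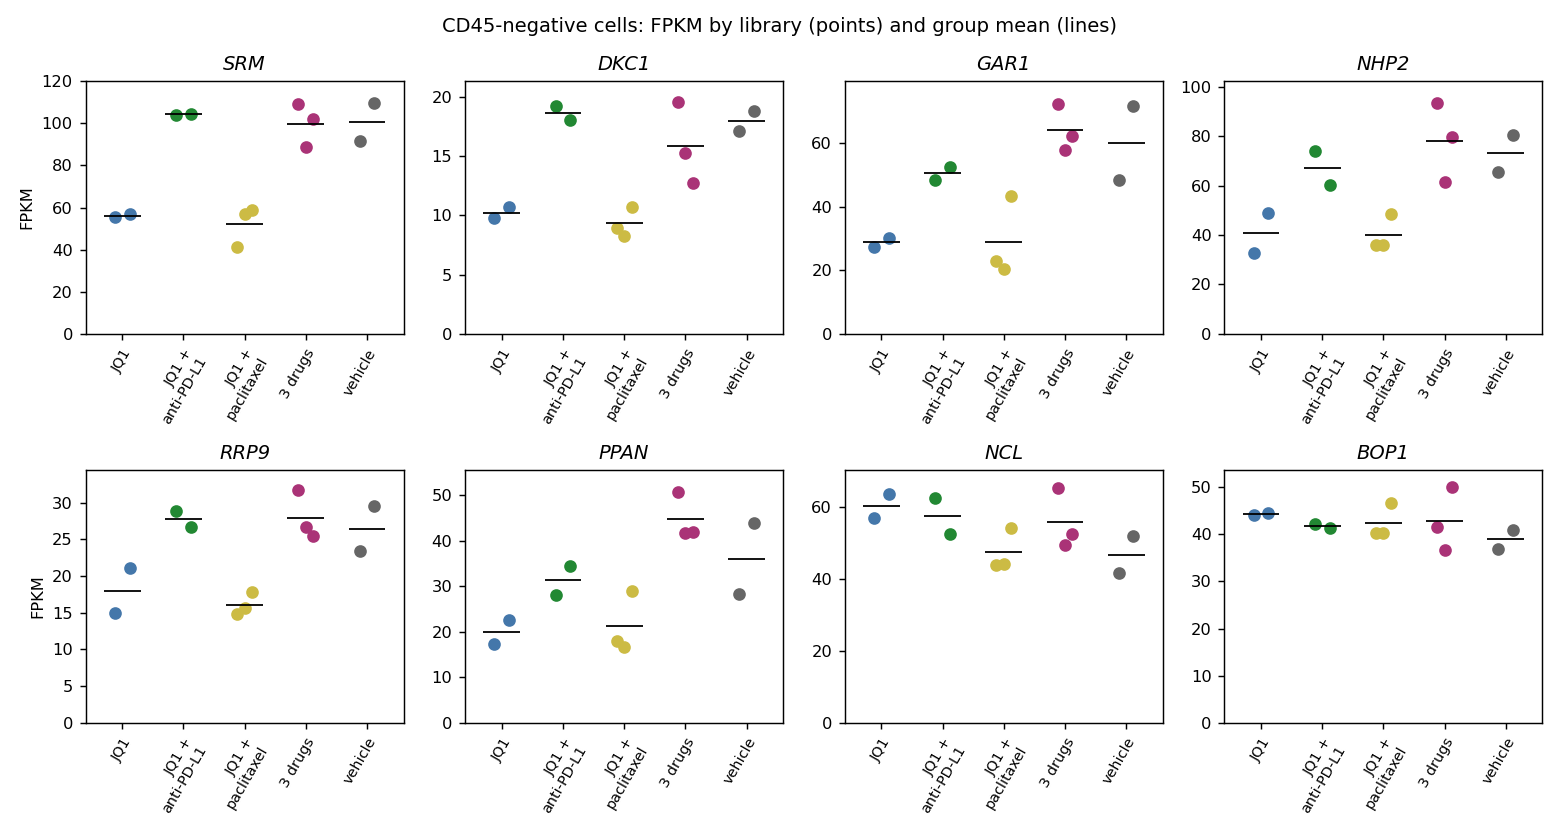
FPKM of 8 members in the CD45-negative libraries (points) with the group mean (lines), each vertical axis starting at 0. SRM, DKC1, GAR1, NHP2 and RRP9 separate the JQ1 and the JQ1 plus paclitaxel groups from the other 3, PPAN does so with overlap, and NCL and BOP1 do not.

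Box C/D snoRNPs add methyl groups to ribose. Of their 4 members, FBL, NOP58 and RRP9 rose with the antibody and NOP56 was not called in any comparison. FBL encodes fibrillarin, the methyltransferase. It had 57.9 and 78.1 FPKM with JQ1, 81.9 and 78.6 FPKM with JQ1 plus anti-PD-L1, 52.2, 53.0 and 71.8 FPKM with JQ1 plus paclitaxel and 96.9, 75.2 and 97.7 FPKM with all 3 drugs, against 71.6 and 80.0 FPKM with vehicle. The second JQ1 library lay within the range of the antibody libraries. RRP9 binds the U3 snoRNP, which acts in cutting the precursor rather than in methylation. It had 14.9 and 21.1 FPKM with JQ1, 28.8 and 26.6 FPKM with JQ1 plus anti-PD-L1, 14.8, 15.6 and 17.8 FPKM with JQ1 plus paclitaxel and 31.7, 26.6 and 25.5 FPKM with all 3 drugs, against 23.4 and 29.5 FPKM with vehicle. All 5 antibody libraries lay above the 5 without antibody, and the log2 difference for the antibody was 0.69 (SE 0.12, adjusted p 0.00215 by limma). NOP56, a scaffold of the same particle as FBL and NOP58, ranged from 55.2 to 89.1 FPKM with a log2 difference of 0.13 for the antibody. In CD45-positive cells FBL had 50.6 and 46.2 FPKM with JQ1, 58.5 and 52.4 FPKM with JQ1 plus anti-PD-L1, 43.4 and 40.9 FPKM with JQ1 plus paclitaxel and 57.2 and 48.0 FPKM with all 3 drugs, against 50.5 and 54.3 FPKM with vehicle.

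RNA polymerase I subunits gave 1 call among 4. POLR1B, the second largest subunit, was called higher with the antibody. It had 1.27 and 1.07 FPKM with JQ1, 3.62 and 2.76 FPKM with JQ1 plus anti-PD-L1, 1.23, 2.13 and 2.25 FPKM with JQ1 plus paclitaxel and 3.42, 3.91 and 2.47 FPKM with all 3 drugs, against 1.99 and 4.07 FPKM with vehicle. Every antibody library lay above every library without it, while 1 vehicle tumour lay in the lower range and 1 above both. POLR1A, the largest subunit and part of the same catalytic core, ranged only from 4.36 to 6.21 FPKM, with a log2 difference of 0.11 for the antibody. POLR1C, which RNA polymerase III shares, had 20.7 and 30.4 FPKM with JQ1, 28.2 and 28.4 FPKM with JQ1 plus anti-PD-L1, 24.0, 24.7 and 29.8 FPKM with JQ1 plus paclitaxel and 33.6, 24.8 and 30.2 FPKM with all 3 drugs, against 21.8 and 37.1 FPKM with vehicle. The 2 vehicle tumours were close to both ends of this range. POLR1E, an initiation subunit, ranged from 1.19 to 2.35 FPKM. In CD45-positive cells POLR1C had 15.9 and 14.6 FPKM with JQ1, 14.9 and 9.63 FPKM with JQ1 plus anti-PD-L1, 11.2 and 11.2 FPKM with JQ1 plus paclitaxel and 15.6 and 11.5 FPKM with all 3 drugs, against 9.96 and 12.1 FPKM with vehicle.

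Among nucleolar organisers and chaperones, the 3 factors NOLC1, GNL3 and LYAR rose with the antibody and the 2 abundant structural proteins did not pass the test. NOLC1 carries snoRNPs to the nucleolus, GNL3 encodes nucleostemin, and LYAR is a nucleolar zinc-finger protein. LYAR also fell with JQ1 plus paclitaxel. It had 28.7 and 35.4 FPKM with JQ1, 42.8 and 38.3 FPKM with JQ1 plus anti-PD-L1, 27.2, 19.9 and 29.3 FPKM with JQ1 plus paclitaxel and 57.1, 37.3 and 42.8 FPKM with all 3 drugs, against 40.9 and 45.3 FPKM with vehicle. The libraries with JQ1 but no antibody were the 5 lowest. NPM1 encodes nucleophosmin, a chaperone that carries preribosomes. It had 172 and 218 FPKM with JQ1, 221 and 208 FPKM with JQ1 plus anti-PD-L1, 154, 168 and 198 FPKM with JQ1 plus paclitaxel and 228, 151 and 166 FPKM with all 3 drugs, against 183 and 210.2 FPKM with vehicle. Each treated group overlapped vehicle. NCL, which encodes nucleolin, had 56.9 and 63.6 FPKM with JQ1, against 41.5 and 51.8 FPKM with vehicle, so that it was higher without overlap where most members were lower (log2 difference 0.37, SE 0.18, adjusted p 0.195 by limma). Libraries rescaled to an equal upper quartile would call it higher, a scaling that moves the median of all genes in that comparison to 0.08. In CD45-positive cells NPM1 had 91.2 and 88.9 FPKM with JQ1, 83.4 and 64.4 FPKM with JQ1 plus anti-PD-L1, 73.5 and 86.8 FPKM with JQ1 plus paclitaxel and 93.8 and 94.2 FPKM with all 3 drugs, against 82.7 and 87.1 FPKM with vehicle.

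Small-subunit factors were mixed, with 2 of 6 called higher when the antibody was added and none called in any other comparison of CD45-negative cells. The 2 were WDR43, a component of the complex that assembles on the nascent precursor, and RRP12, which acts in later maturation. WDR43 had 13.6 and 19.8 FPKM with JQ1, 22.9 and 26.6 FPKM with JQ1 plus anti-PD-L1, 15.9, 18.3 and 29.3 FPKM with JQ1 plus paclitaxel and 37.0, 31.2 and 30.2 FPKM with all 3 drugs, against 20.7 and 31.9 FPKM with vehicle. The third JQ1 plus paclitaxel library reached the level of the antibody libraries. RRP12 had 6.76 and 5.33 FPKM with JQ1, 9.55 and 7.59 FPKM with JQ1 plus anti-PD-L1, 6.27, 5.81 and 6.12 FPKM with JQ1 plus paclitaxel and 9.73, 9.82 and 13.1 FPKM with all 3 drugs, against 7.50 and 8.97 FPKM with vehicle. Its 5 antibody libraries were above the 5 without. UTP20 and HEATR1, very large scaffolds of the same early complex, were higher with JQ1 than with vehicle without overlap, and neither was called. UTP20 was at 2.21 and 1.96 FPKM with JQ1, against 1.30 and 1.46 FPKM with vehicle. TSR1, a late cytoplasmic factor, ranged from 6.48 to 17.2 FPKM and the RNA helicase DDX21 from 8.02 to 18.3 FPKM, with a vehicle tumour at or next to the lowest value of each. In CD45-positive cells WDR43 had 14.0 and 12.5 FPKM with JQ1, 14.1 and 11.8 FPKM with JQ1 plus anti-PD-L1, 10.3 and 9.77 FPKM with JQ1 plus paclitaxel and 19.6 and 12.6 FPKM with all 3 drugs, against 9.86 and 14.1 FPKM with vehicle.

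Of the 10 large-subunit factors, PES1, NOP16, PPAN and MRTO4 rose with the antibody, and RRP1B fell with JQ1 plus paclitaxel. PPAN acts in processing of the large-subunit precursor. It had 17.2 and 22.6 FPKM with JQ1, 28.0 and 34.5 FPKM with JQ1 plus anti-PD-L1, 18.1, 16.7 and 29.1 FPKM with JQ1 plus paclitaxel and 50.8, 41.7 and 41.9 FPKM with all 3 drugs, against 28.2 and 43.9 FPKM with vehicle. Only the third JQ1 plus paclitaxel library reached the antibody range. PES1, BOP1 and WDR12 form 1 complex, and PES1 was the only one of them called. PES1 had 15.3 and 19.1 FPKM with JQ1, 23.6 and 23.0 FPKM with JQ1 plus anti-PD-L1, 17.1, 18.4 and 22.1 FPKM with JQ1 plus paclitaxel and 25.2, 21.4 and 22.9 FPKM with all 3 drugs, against 22.8 and 26.1 FPKM with vehicle. BOP1 was the flattest member, with a highest-to-lowest ratio of 1.36. It had 44.1 and 44.5 FPKM with JQ1, 42.3 and 41.5 FPKM with JQ1 plus anti-PD-L1, 40.3, 40.3 and 46.8 FPKM with JQ1 plus paclitaxel and 41.5, 36.7 and 50.0 FPKM with all 3 drugs, against 37.0 and 41.0 FPKM with vehicle. Both groups given JQ1 without paclitaxel were above vehicle without overlap, and neither difference was called. RRP1B, a nucleolar protein of precursor processing, had 3.29, 3.21 and 2.76 FPKM with JQ1 plus paclitaxel, against 5.08 and 5.32 FPKM with vehicle. NOP2, an RNA methyltransferase, was not called in any comparison, nor were RRS1, NIP7 and WDR12, with levels from 4.14 FPKM (WDR12) to 30.4 FPKM (NOP2). In CD45-positive cells BOP1 had 17.6 and 21.2 FPKM with JQ1, 19.4 and 22.4 FPKM with JQ1 plus anti-PD-L1, 24.0 and 18.0 FPKM with JQ1 plus paclitaxel and 17.8 and 27.6 FPKM with all 3 drugs, against 14.5 and 15.6 FPKM with vehicle.

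PPRC1, a coactivator related to Pgc-1 that couples growth signals to nuclear respiratory genes, was not called in any comparison. It had 5.53 and 5.52 FPKM with JQ1, 7.06 and 9.32 FPKM with JQ1 plus anti-PD-L1, 7.15, 6.85 and 12.1 FPKM with JQ1 plus paclitaxel and 10.0, 15.5 and 10.5 FPKM with all 3 drugs, against 5.50 and 9.35 FPKM with vehicle. The 3-drug libraries lay above vehicle without overlap (log2 difference 0.64, SE 0.27, adjusted p 0.211 by limma). In CD45-positive cells it had 4.45 and 3.32 FPKM with JQ1, 2.24 and 1.40 FPKM with JQ1 plus anti-PD-L1, 3.70 and 3.998 FPKM with JQ1 plus paclitaxel and 3.14 and 1.61 FPKM with all 3 drugs, against 1.64 and 4.54 FPKM with vehicle. For calls not given in full, the 3 further members lowered by JQ1 plus paclitaxel had log2 differences of -0.76 to -0.60 and adjusted p of 0.0204 to 0.0322 by limma. The 13 further members raised with the antibody had log2 differences of 0.34 to 0.85 and adjusted p of 0.00265 to 0.0386 by limma.

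In CD45-positive cells, 34 members passed the filter of at least 1 FPKM in at least 2 libraries, and UTP20, at 0.452 to 1.13 FPKM, did not. The only call there was DKC1, which fell with JQ1 plus paclitaxel, where 3.26% of the 10340 genes tested were lower and 1.58% higher. As a share, 1 of 34 members was no more than that of all genes called lower. DKC1 had 2.29 and 1.72 FPKM with JQ1 plus paclitaxel, against 6.11 and 7.08 FPKM with vehicle (log2 difference -1.34, SE 0.24, adjusted p 0.0205 by limma). The call was lost without any 1 of those 4 libraries, with 1 value per mouse code and with relative depth as a covariate, and NHP2 joined it without either 3-drug library. Across the same comparison the members' median difference was -0.28, against -0.09 over all genes, and 9 members had an unadjusted p under 0.05. Unadjusted counts in this fraction, here and below, are given without the share over all genes, and no result is read from them. Without overlap, 15 members were lower and 6 higher, beside 33.5% and 18.9% of all genes. SRM was at 22.5 and 13.5 FPKM with JQ1 plus paclitaxel, against 28.7 and 28.3 FPKM with vehicle. Other cell markers moved in this comparison. The summed FPKM of the endothelial markers was 81.3 to 110.0 with JQ1 plus paclitaxel, against 5.59 to 9.86 with vehicle, and that of the 14 fibroblast markers was 169.8 to 288, against 78.4 to 126. The 12 pan-leukocyte markers summed to 3895 to 3945 FPKM with JQ1 plus paclitaxel, against 4782 to 5051 FPKM with vehicle, and 10 of 22 mitosis genes fell. Their part in the DKC1 result was not tested.

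No member was called in the other 6 comparisons of CD45-positive cells, by limma. For JQ1, 0.435% of genes were lower and 0.609% higher, with 3 members at an unadjusted p under 0.05, of which POLR1A and NCL had positive and NHP2 a negative difference. Without overlap, 7 members were lower and 10 higher, beside 26.7% and 22.4% of genes. For JQ1 plus anti-PD-L1, 0.029% of genes were lower and 0% higher, with 1 such member (ODC1). Without overlap, 10 members were lower and 3 higher, beside 27.1% and 14.8% of genes. For all 3 drugs, 0.087% of genes were lower and 0.0484% higher, with 0 such members. Without overlap, 4 members were lower and 7 higher, beside 20.5% and 18.1% of genes. When paclitaxel was added, 0.029% of genes were higher and 0.00967% lower, with 1 such member (RRP1B) and none free of overlap, beside 0.986% of genes for higher and 1.72% for lower. When anti-PD-L1 was added, 0.484% of genes were higher and 0.348% lower, with 4 such members (DKC1, NHP2, RRP1B and PPRC1). Without overlap, 0 members were higher and 2 lower, beside 5.64% and 3.64% of genes. The members' median difference for the antibody was 0.06, against 0.01 over all genes, where the CD45-negative median was 0.43. The 2 fractions come from separate tables, and this contrast between them was not tested. In the interaction, 0% of genes were called in either direction, 4 members had an unadjusted p under 0.05, and 31 of 34 differences were positive, with a median of 0.47 against 0.16 over all genes.

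All 35 members had a median CD45-positive over CD45-negative FPKM ratio below 1 in the 10 tumours with both fractions. In 24 of them the CD45-positive value was the lower one in every tumour. A ratio under 1 was common, since 65.9% of all genes that passed the filter in both fractions had one on FPKM + 1. The median of the 35 ratios was 0.444. GAR1 had the lowest median ratio, 0.203, followed by SRM with 0.279 and ODC1 at nearly the same value, and PES1 had the highest, 0.839. On FPKM + 1, the median ratio was 0.488 over the members and 0.808 over all genes that passed the filter in both fractions, and 16.5% of those genes lay below the members' value. The tables were normalised apart, so no test was made across them.

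**Figure D4:**
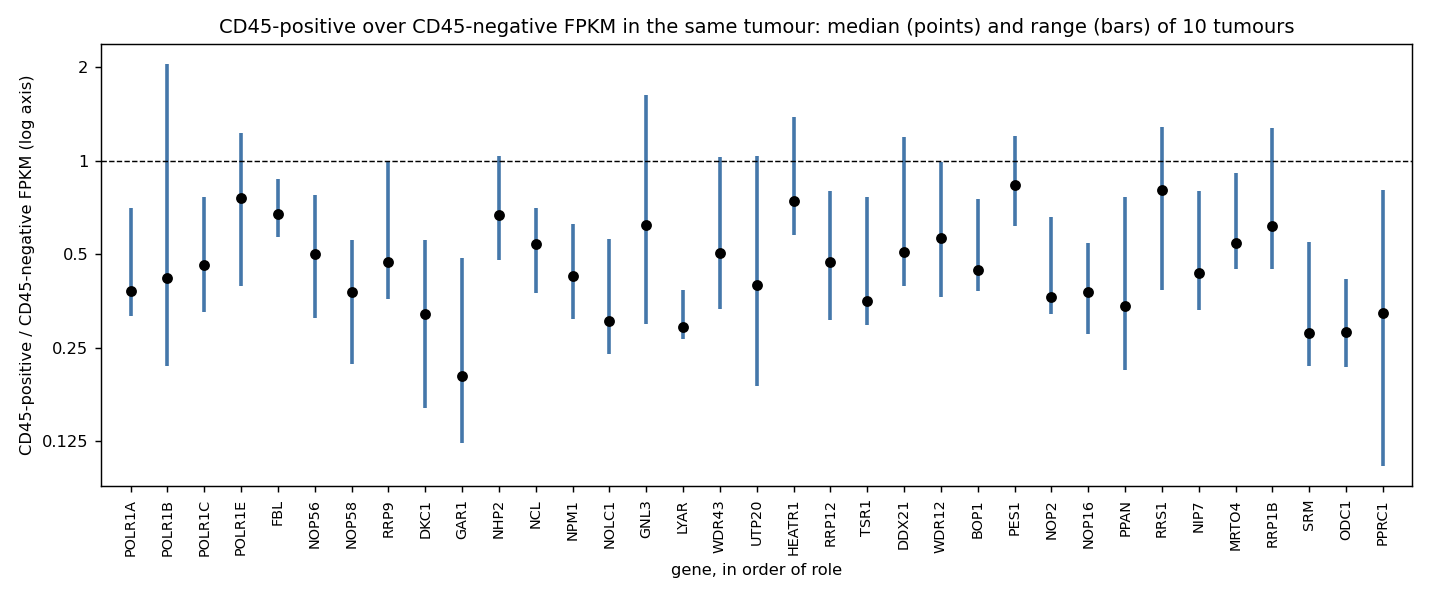
Median (points) and range (bars) over 10 tumours of the CD45-positive over CD45-negative FPKM ratio for each member, on a log axis, with a dashed line at 1. All 35 medians lie under the line, and the lowest is GAR1 at 0.203.

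Other gene lists were counted beside the members. Of 91 other ribosome biogenesis factors tested in CD45-negative cells, 5 fell with JQ1, 11 fell with JQ1 plus paclitaxel, and 18 rose and 1 fell when the antibody was added. Over all genes 9.68% fell with JQ1 and 12.3% with JQ1 plus paclitaxel, so this list fell no more often than all genes did, and 14% rose and 10.9% fell with the antibody. The list's medians were -0.20, -0.20 and 0.18. With JQ1, the smallest p-values among these belonged to LTV1, a small-subunit export factor (-0.91, adjusted p 0.0102 by limma), and ZNRD1, a polymerase I subunit (-0.84, adjusted p 0.0198 by limma). With JQ1 plus paclitaxel they belonged to FCF1 (-0.85, adjusted p 0.00689 by limma) and RRP8 (-0.89, adjusted p 0.00804 by limma), which act in precursor cutting and in base methylation. For the antibody they belonged to LTV1 (0.78, adjusted p 0.00120 by limma) and TCOF1, which encodes treacle (0.69, adjusted p 0.00196 by limma). The one that fell was TAF1C of the polymerase I initiation factor, named here after its value was seen. In CD45-positive cells RPF2, a large-subunit factor, fell with JQ1 plus paclitaxel (-0.98, adjusted p 0.0433 by limma). Of 77 cytosolic ribosomal protein genes tested in CD45-negative cells, 0 passed the test with JQ1 by limma. An unadjusted p under 0.05 was found for 9 of them, beside 3326 of the 10780 genes tested. With JQ1 plus paclitaxel 3 fell, and 3 rose with the antibody, with a median of 0.06 for the antibody. Of 22 mitosis genes, 4 fell with JQ1, 17 fell with JQ1 plus paclitaxel and 7 rose with the antibody.

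**Figure D5:**
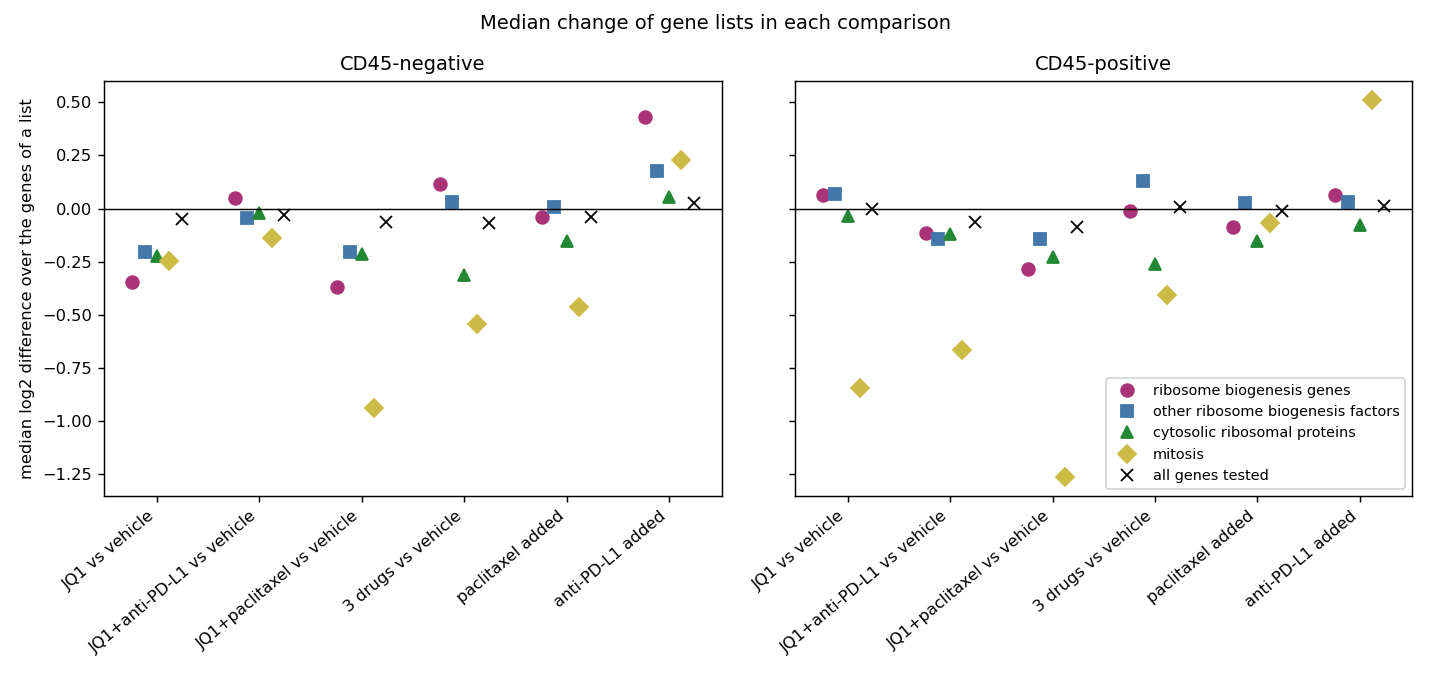
Median log2 difference of each gene list in 6 comparisons, in CD45-negative (left) and CD45-positive cells (right), with crosses for all genes tested. For the antibody in CD45-negative cells the members have a median of 0.43, above the other factors at 0.18, the ribosomal proteins at 0.06 and all genes at 0.03.

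MYC mRNA passed the test in no comparison of either fraction. In CD45-negative cells MYC had 44.2 and 67.1 FPKM with JQ1, 46.7 and 75.7 FPKM with JQ1 plus anti-PD-L1, 93.9, 85.2 and 111 FPKM with JQ1 plus paclitaxel and 128, 136 and 116 FPKM with all 3 drugs, against 47.1 and 138 FPKM with vehicle. The paclitaxel libraries were all above the JQ1 libraries without paclitaxel, and the 2 vehicle tumours were near opposite ends of the range. The log2 difference was -0.56 with JQ1 (adjusted p 0.336 by limma), 0.94 with paclitaxel added (adjusted p 0.0543 by limma) and 0.26 with the antibody added (adjusted p 0.466 by limma). In CD45-positive cells MYC had 10.0 and 14.4 FPKM with JQ1, 10.3 and 12.02 FPKM with JQ1 plus anti-PD-L1, 16.1 and 11.5 FPKM with JQ1 plus paclitaxel and 11.2 and 13.3 FPKM with all 3 drugs, against 19.1 and 18.6 FPKM with vehicle. All 8 treated libraries lay below both vehicle libraries there, with log2 differences of -0.71 to -0.44 and adjusted p of 0.216 to 0.577 by limma, and the difference with paclitaxel added was 0.14 (adjusted p 0.846 by limma). In CD45-negative cells HEXIM1, which is known to rise when BET proteins are inhibited, was high in the groups where the called members were low. It had 4.08 and 3.34 FPKM with JQ1, 2.02 and 1.15 FPKM with JQ1 plus anti-PD-L1, 3.67, 4.70 and 3.24 FPKM with JQ1 plus paclitaxel and 1.50, 0.978 and 1.32 FPKM with all 3 drugs, against 0.768 and 1.38 FPKM with vehicle. HEXIM1 rose with JQ1 (log2 difference 1.20, adjusted p 0.00760 by limma) and with JQ1 plus paclitaxel (1.24, adjusted p 0.00309 by limma), and fell when the antibody was added (-0.99, adjusted p 0.00103 by limma). In CD45-positive cells HEXIM1 passed the test in no comparison. It ran there from 2.84 to 5.75 FPKM with JQ1 and 4.74 to 4.80 FPKM with JQ1 plus paclitaxel. Its range was 1.99 to 4.13 FPKM with JQ1 plus anti-PD-L1 and 1.81 to 3.93 FPKM with all 3 drugs, against 0.993 to 1.99 FPKM with vehicle. The difference with the antibody added was -0.50 (adjusted p 0.384 by limma).

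Levels of cell type markers differed between these groups too, and 9 marker lists were summed in each CD45-negative library. The sum of 10 epithelial markers was 299.8 to 361 FPKM with JQ1, 371 to 505 FPKM with JQ1 plus anti-PD-L1, 345 to 551 FPKM with JQ1 plus paclitaxel and 544 to 781 FPKM with all 3 drugs, against 512 to 896 FPKM with vehicle. That sum lay below vehicle without overlap in the JQ1 and the JQ1 plus anti-PD-L1 groups. It overlapped vehicle with JQ1 plus paclitaxel and with all 3 drugs. Of the 7 epithelial markers tested, 3 fell with JQ1, 2 fell with JQ1 plus paclitaxel and 2 rose with the antibody. Most of the sum of the 10 was KRT8, with a median of 451 FPKM over the libraries. The medians of the other 9 were 41.5 FPKM for KRT18, 5.24 for KRT19, 3.58 for EPCAM, 1.81 for KRT14, 1.50 for TRP63, 0.542 for CLDN4, 0.385 for CDH1, 0.242 for CLDN7 and 0.0369 for KRT5.

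Globin and other erythroid genes (4 markers) had sums of 0.962 to 3.42 FPKM with JQ1, 20.1 to 67.4 FPKM with JQ1 plus anti-PD-L1, 0.646 to 2.19 FPKM with JQ1 plus paclitaxel and 0.730 to 3.60 FPKM with all 3 drugs, against 109.8 to 262 FPKM with vehicle. Of the 3 erythroid markers tested, 3 fell with JQ1, 3 fell with JQ1 plus paclitaxel and 2 rose with the antibody. The 10 T cell markers summed to 4.27 to 4.99 FPKM with JQ1, 6.05 to 8.94 FPKM with JQ1 plus anti-PD-L1, 1.77 to 3.43 FPKM with JQ1 plus paclitaxel and 4.39 to 22.3 FPKM with all 3 drugs, against 10.2 to 10.7 FPKM with vehicle. The highest T cell medians over these libraries were 2.69 FPKM for TCF7 and 1.36 FPKM for LCK. All other T cell markers had medians of at most 0.465 FPKM, and TCF7 had a lower median, 1.63 FPKM, in CD45-positive libraries. This sum is therefore a weak measure of T cells. The erythroid and T cell sums with JQ1 and with JQ1 plus paclitaxel lay below vehicle without overlap, as the called members did. The erythroid sums lay below vehicle in both antibody groups too, and the T cell sums did so with JQ1 plus anti-PD-L1. In neither antibody group was a member called against vehicle.

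The 12 pan-leukocyte markers summed to 343 to 494 FPKM with JQ1, 618 to 893 FPKM with JQ1 plus anti-PD-L1, 292 to 825 FPKM with JQ1 plus paclitaxel and 382 to 649 FPKM with all 3 drugs, against 278 to 351 FPKM with vehicle. The 12 macrophage and monocyte markers summed to 2075 to 2764 FPKM with JQ1 plus anti-PD-L1, against 756 to 1152 FPKM with vehicle. Their sums were 1065 to 1540 with JQ1, 1154 to 3327 with JQ1 plus paclitaxel and 1193 to 1828 with all 3 drugs. Of these 12 markers, 12 were above vehicle without overlap in the JQ1 plus anti-PD-L1 group. That number was 5 for JQ1, 2 for JQ1 plus paclitaxel and 5 for all 3 drugs. The 10 neutrophil markers ran from 61.8 to 66.9 FPKM with JQ1 plus anti-PD-L1 and from 8.26 to 37.4 FPKM in all other groups. Over all libraries the 14 fibroblast markers ran from 1477 to 3173 FPKM, the 10 endothelial markers from 4.96 to 33.0 FPKM and the 7 B cell markers from 0 to 16.5 FPKM. No marker of these lists was at 0 in every library. Relative depths were 0.554 and 0.653 in the JQ1 libraries, against 1.79 and 1.13 in the vehicle libraries. With relative depth as a covariate, SRM was the 1 member still called for JQ1, 6 of the 7 were for JQ1 plus paclitaxel and 12 of the 17 for the antibody, with NOP2 added. The part of cell makeup in the results was not tested.

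Transcript length also moved with the differences. Over the 35 members, Spearman's rho between length and log2 difference was 0.36 for JQ1, 0.39 for JQ1 plus paclitaxel and -0.29 for the antibody, and over 10464 genes it was 0.28, 0.24 and -0.15. These are descriptions across genes of shared libraries. The 4 members called for JQ1 include some of the shortest transcripts, with longest annotated lengths of 1042 bases for NHP2, 1271 for GAR1 and 1338 for SRM, but also 2804 for DKC1. With the length trend of each library removed, an alternative added after seeing the data, 2 members (DKC1 and SRM) were called for JQ1, 6 of the 7 and NOP58 for JQ1 plus paclitaxel, and 19 for the antibody, which included all 17. Among called members, exons of RRP9, DKC1, NHP2, GNL3, PES1 and RRP1B overlap those of a protein-coding gene on the opposite strand in GENCODE M21. The same holds for NOP56, HEATR1, TSR1, WDR12, BOP1 and PPRC1, which were not called. Whether strand was used in counting is not given in the sources used here, so reads from such pairs cannot be told apart. FBL has 1 and MRTO4 has 2 pseudogenes named after it, which makes their values less certain. Pseudogenes under other names were not looked for, so the other members may have some too.

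Tumours of one group differed for most members at once. Vehicle replicate 1 was below replicate 2 for 34 of 35 members in CD45-negative cells and for 30 of 35 in CD45-positive cells, and the 2 are tumours of one mouse. JQ1 plus paclitaxel replicate 3 was the highest of its group for 28 of 35 members, and 3-drug replicate 1 for 26 of 35. The summed FPKM of the 35 members in CD45-negative cells was 951 to 1145 with JQ1, 1269.8 to 1307 with JQ1 plus anti-PD-L1, 847 to 1177 with JQ1 plus paclitaxel and 1189 to 1544 with all 3 drugs, against 1072 to 1418 with vehicle.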

How the data were processed

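RNA-seq libraries were made with a SMARTer v4 low-input kit from under 10 ng of total RNA and sequenced on a NextSeq500, per the labels' protocols. Reads were aligned with STAR 2.5.1b to mm9, per the submitters' processing notes. Neither the tool behind the gene values nor the handling of strand is given in the sources used here. The deposited values are labelled as gene counts and were read as FPKM, as judged from their non-integer values and sums. Each fraction was fitted apart with limma 3.58.1 (R 4.3.3, trend) on log2(FPKM + 1) over all 5 groups. Genes needed FPKM of at least 1 in at least 2 libraries. Tests were two-sided with Benjamini-Hochberg adjustment over all genes and a threshold of 0.05, and a fold change on this scale understates low genes. The fit was tested on simulated data with independent errors for each gene and library. Those data held no tumours of a shared mouse and no shift common to many genes, so the effect of either was not tested. The members and lists were chosen with earlier results of these data known. All 35 members are named, with full statistics for at most 4 called members per direction and comparison, by smallest adjusted p, and every library's value for the highest member of each role. Non-members named are MYC, HEXIM1, PTPRC and the 2 other factors of smallest p among those called, with the cell markers of the lists, and TAF1C was named after its value was seen. Alternatives were a pseudocount of 0.1, no filter, FPKM of at least 5 in 2 libraries, upper-quartile scaling, relative depth as covariate, 1 value per mouse code, each library left out, and removal of the length trend. Promoters are from RefSeq, gene structures from GENCODE M21.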

Additional observations from a re-analysis of the deposited data

How the results depend on the processing

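No called member changed sign under any alternative run. The 4 members called for JQ1 in CD45-negative cells became 2 with no filter, 1 with relative depth as a covariate, 0 with 1 value per mouse code and 2 with the length trend removed, and leaving out 1 library gave 0 to 6. The 7 called for JQ1 plus paclitaxel became 0 with 1 value per mouse code and 0 to 8 with 1 library left out. The 17 called for the antibody became 11 with no filter, 6 with 1 value per mouse code and 8 to 19 with 1 library left out. The 1 called for JQ1 plus paclitaxel in CD45-positive cells became 0 with relative depth as a covariate, 0 with 1 value per mouse code and 0 to 2 with 1 library left out. With 1 value per mouse code, 3 of the groups hold 1 value, which is assumed to vary like the groups with several codes. The cause of these changes was not tested. All other comparisons gave 0 members under each alternative run. Upper-quartile scaling moved the median of all genes by over 0.1 in 4 comparisons: to 0.08 for JQ1 and 0.07 for JQ1 plus paclitaxel in CD45-negative cells, and to 0.06 for JQ1 plus paclitaxel and 0.04 for the interaction in CD45-positive cells. The members' medians were then -0.19, -0.21, -0.11 and 0.34. No paired analysis was possible because no mouse code is shared between treatment groups, and the replicate numbers only name libraries in accession order. Relative depth is known only within a fraction, so no counting error can be given.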
